A study of Mus musculus with 8 samples.

Results

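Potassium channel genes were followed in mouse muscle stem cells, which rebuild muscle fibres after injury, before and after 48 h of culture. The genes were taken by name, as every line of the deposited expression table whose symbol starts with Kcn followed by letters and a number. The rule gave 98 of the 45706 lines used, and was set with earlier results of these data known. By channel class they were 40 voltage-gated pore subunits (Kcna to Kcnd, Kcnf to Kcnh, Kcnq, Kcns and Kcnv), 15 inward rectifiers (Kcnj), 14 two-pore channels (Kcnk) and 12 calcium- or sodium-activated channels with their beta subunits (Kcnm, Kcnn, Kcnt and Kcnu). A further 12 were accessory subunits (Kcne, Kcnab and Kcnip) and 5 were non-coding RNAs named after the channel gene at their locus (Kcnq1ot1, Kcnmb4os1, Kcnmb4os2, Kcnd3os and Kcnab3os).

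The 8 RNA-seq libraries came from wild-type (WT) female C57BL/6 mice aged 8 to 12 weeks. Hindlimb muscle cells were sorted as CD45-, Sca1-, CD31-, CD11b-, α7-integrin+ and CD34+. Fresh replicates 1 to 5 held cells taken straight from the sort, and cultured replicates 1 to 3 held sorted cells kept for 48 h on a hydrogel of 12 kPa. The medium given for the libraries was 20% FBS, 40% Low Glucose DMD and 40% F-10. Sequencing was in 2 runs: run 1 held fresh replicates 1 to 3, and run 2 held fresh replicates 4 and 5 in the lane of the cultured libraries. The comparison asks how expression differs after 48 h outside the animal. The sources used here do not state if replicates were separate mice or cultures. The p-values therefore measure the spread between samples that may be technical repeats.

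Potassium channels let potassium ions leave or enter a cell down their gradient and set its membrane potential. Voltage-gated channels open on depolarisation, inward rectifiers and two-pore channels carry resting currents, and calcium-activated channels tie the potential to calcium signals. In cultured myoblasts a step to a more negative membrane potential, carried by Kir2.1 (Kcnj2) and an EAG channel (Kcnh1), is known to precede fusion into myotubes. ATP-sensitive channels of muscle and vessel cells are built from a Kcnj8 or Kcnj11 pore and a sulphonylurea receptor, Abcc8 or Abcc9.

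Total counts were 13919508 to 20055228 per library. At least 1 count was seen for 94, 95 and 94 members in the run-1 fresh libraries, for 55 and 57 in those of run 2, and for 16, 26 and 25 in the cultured libraries. Over all lines the same numbers were 32594 to 34585, 20365 to 20788, and 15282 to 17703, so run 1 detected more genes at similar totals. Levels below are counts scaled to a common library size (CPM). Pax7 and Myf5, the defining genes of muscle stem cells, were detected in every library, Pax7 at 669 to 1362 CPM in fresh and 51.8 to 92.0 CPM in cultured cells. The 8 muscle stem cell markers summed to 4276 to 5565 CPM in fresh and 1049 to 1170 CPM in cultured libraries (6 of 8 lower). Markers of other cells were detected too. The 12 pericyte and smooth muscle markers summed to 1234 to 3421 CPM in fresh and 211 to 251 CPM in cultured libraries (8 of 12 lower). Of these markers 9 had a mean of at least 10 CPM in fresh and 4 in cultured cells, and only Cox4i2 was at 0 in all 3 cultured libraries. The 8 fibro-adipogenic markers summed to 1068 to 1641 CPM and 24.8 to 35.9 CPM (6 of 8 lower), with Ly6a alone at 0 in culture. The 8 endothelial markers summed to 84.4 to 126 CPM and 0.772 to 41.2 CPM (3 of 6 tested lower). The 8 Schwann and glial markers summed to 607 to 1177 CPM and 413 to 587 CPM (6 of 8 lower). In culture Sox10, Cdh19, S100b and Gfra3 were at 0 and Ncam1 made up nearly all of the sum.

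Fresh cells carried a broad set of channel transcripts and cultured cells a narrow one. Of the 98 genes, 66 passed the filter on low counts, 29 of these were lower and 3 higher in culture, and 34 did not pass the test (adjusted p under 0.05, edgeR quasi-likelihood test over all 19054 genes tested). The share lower, 43.9%, stood beside 18.0% of all genes tested, and the share higher, 4.55%, beside 8.87%. In either direction 32 members were called, and 26.9% of all genes. A member expressed only in fresh cells could pass the filter through that group alone, so these shares describe the genes and support nothing further. Of the 29 lower members, 21 (72.4%) had no count in any cultured library, against 37.4% of all genes called lower, and over all 98 genes 58 had none. Every cultured value was below every fresh value for 30 of the 66 (26.1% of all genes) and above for 2 (13.8% of all genes). The median log2 fold change was -2.52, or -2.41 with genes at 0 set to their bound, against -0.21 over all genes tested. Without scaling factors the median of all genes was 0.03 and their calls were 15.0% lower and 12.9% higher, and the members called were 26 lower and 3 higher. In sorted populations fewer cells of a type and less RNA per cell cannot be told apart.

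The model held sequencing run as a term. No cultured library was in run 1, so each fold change sets culture against the run-2 fresh libraries, while those of run 1 add to the estimate of the spread. For a gene with no count in culture the fold is a lower bound, from the pooled run-2 fresh level over 3 counts in the 3 cultured libraries together, which is 0.0517 CPM. With 1 to 3 counts in culture the ratio is given with its exact 95% counting interval. Such bounds and intervals cover counting error only.

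**Figure D1:**
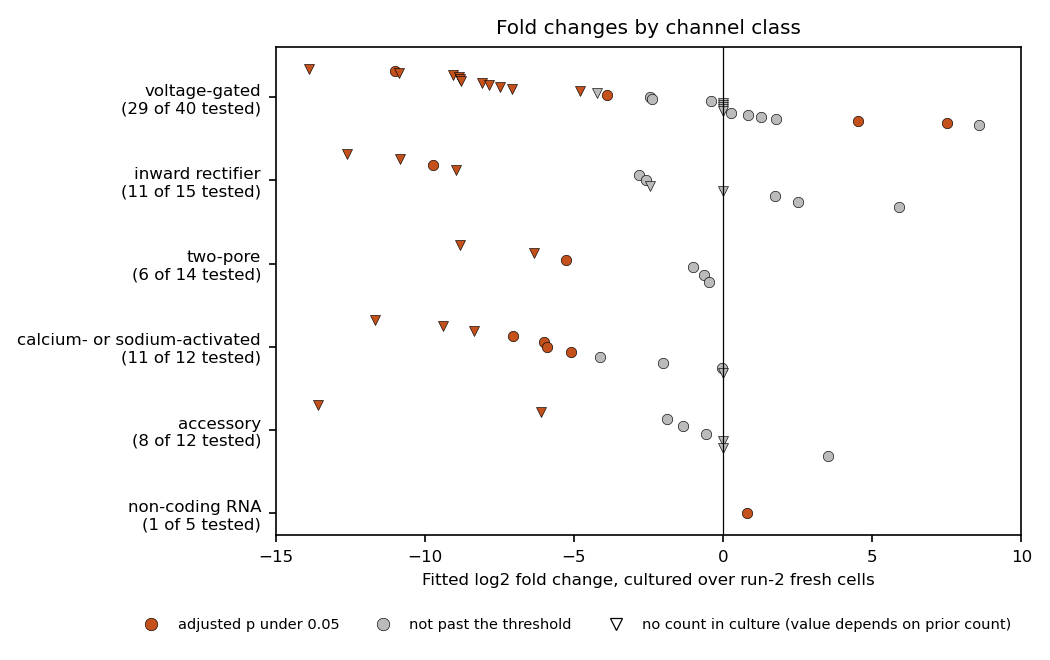
Fitted log2 fold change of each tested potassium channel gene, cultured over run-2 fresh cells, by channel class (1 mark per gene, spread vertically only for visibility). Filled marks passed an adjusted p of 0.05, and triangles are genes with no count in culture, whose fitted value depends on the prior count. Most called genes lie to the left in every class except the non-coding RNAs, where the single tested gene, Kcnq1ot1, lies to the right.

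The start regions of the called members at 10 CPM or more are shown because these are the called genes with the highest levels, 9 of them lower and 3 higher in culture. A start region was in the RefSeq promoter table (GRCm38.p6) for 11 of the 12, and the 6 whose 250 bases before the start hold no exon of the GENCODE M21 annotation are printed 5′ to 3′ on the strand of the gene. Capitals mark 4 motifs searched on both strands: the E-box CANNTG bound by myogenic factors such as MyoD, the core TGGGAA bound by the Notch effector RBPJ, the AP-1 site TGANTCA and the GC box GGGCGG. None of the marked matches overlap. The first 4 genes were lower and the last 2 higher in culture. The starts are those of RefSeq, and the windows of Kcnt2 and Kcnq5 do not adjoin the GENCODE coordinates given below for these genes. The windows lie at chr6:142571615-142571864, minus strand for Kcnj8, chr11:111065914-111066163, plus strand for Kcnj2, chr1:140245468-140245717, plus strand for Kcnt2, chr3:89519914-89520163, plus strand for Kcnn3, chr1:21962651-21962900, minus strand for Kcnq5 (the first listed of 2) and chr12:17176889-17177138, minus strand for Kcnf1.
Kcnj8: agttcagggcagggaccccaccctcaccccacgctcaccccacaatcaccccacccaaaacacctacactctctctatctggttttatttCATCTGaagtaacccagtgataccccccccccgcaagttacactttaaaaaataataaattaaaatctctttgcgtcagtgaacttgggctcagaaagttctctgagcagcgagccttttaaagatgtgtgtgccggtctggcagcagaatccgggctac
Kcnj2: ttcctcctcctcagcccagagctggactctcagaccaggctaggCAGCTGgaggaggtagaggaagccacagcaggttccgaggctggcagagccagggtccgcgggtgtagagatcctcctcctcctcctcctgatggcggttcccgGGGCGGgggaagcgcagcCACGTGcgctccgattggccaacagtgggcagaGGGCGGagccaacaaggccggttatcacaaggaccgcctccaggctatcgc
Kcnt2: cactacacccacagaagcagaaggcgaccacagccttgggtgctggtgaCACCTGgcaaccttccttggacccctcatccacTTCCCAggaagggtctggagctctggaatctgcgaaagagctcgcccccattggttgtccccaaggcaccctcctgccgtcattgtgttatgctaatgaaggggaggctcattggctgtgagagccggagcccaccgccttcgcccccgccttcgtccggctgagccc
Kcnn3: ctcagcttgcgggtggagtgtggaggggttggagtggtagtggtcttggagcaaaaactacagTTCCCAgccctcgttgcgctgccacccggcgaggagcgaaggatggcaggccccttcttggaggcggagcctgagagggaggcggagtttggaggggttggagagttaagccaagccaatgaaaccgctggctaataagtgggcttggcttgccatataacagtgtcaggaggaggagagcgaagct
Kcnq5: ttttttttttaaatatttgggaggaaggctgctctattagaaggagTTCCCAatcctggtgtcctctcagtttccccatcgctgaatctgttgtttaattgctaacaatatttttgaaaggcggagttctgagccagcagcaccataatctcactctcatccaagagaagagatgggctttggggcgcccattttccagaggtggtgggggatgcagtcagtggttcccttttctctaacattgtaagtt
Kcnf1: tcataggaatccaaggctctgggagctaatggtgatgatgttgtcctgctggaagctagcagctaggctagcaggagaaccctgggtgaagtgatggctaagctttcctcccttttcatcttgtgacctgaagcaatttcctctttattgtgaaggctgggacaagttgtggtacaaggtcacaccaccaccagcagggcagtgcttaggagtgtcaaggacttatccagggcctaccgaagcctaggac

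The Kcnj2 window holds 2 E-boxes and 2 GC boxes, Kcnj8 holds 1 E-box and Kcnt2 holds 1 E-box and 1 RBPJ core. Kcnn3 and Kcnq5 hold 1 RBPJ core each, and the Kcnf1 window holds none of the 4 motifs. Of 27025 promoter windows of the same length, 66.0% hold an E-box, 21.5% an RBPJ core, 6.87% an AP-1 site and 32.9% a GC box. Windows were found for 71 members, and the 20 of lower members held these motifs in 55.0, 20.0, 0 and 55.0% of cases. Their median GC content was 62.6%, against 53.2% in the 23 windows of tested members that were not called and 52.0% in all windows. A match describes letters only, and no test was run on these shares.

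Of 29 voltage-gated genes tested, 13 (44.8%) were lower and 2 (6.90%) higher, beside 18.0% and 8.87% of all genes tested. Among voltage-gated channels, the Shaker family (Kcna), whose members form delayed-rectifier and low-threshold currents, was well represented in fresh cells. Its 8 genes summed to 35.5, 329, 399, 279 and 209.9 CPM in fresh replicates 1 to 5 and to 0, 0.101 and 0.0510 CPM in cultured replicates 1 to 3. Kcna1 (Kv1.1; ENSMUSG00000047976; chr6:126640397-126646384 in mm10) was at 17.9, 205, 249, 128 and 114 CPM in fresh and 0, 0.101 and 0.0510 CPM in cultured cells. The groups did not overlap, and fresh replicate 1 was the lowest fresh library. The level in run-2 fresh cells exceeded that in culture by a ratio of 2379 (interval 803 to 11386; adjusted p = 0.000761), or 4684 without cultured replicate 2.

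Kcna2 (Kv1.2; ENSMUSG00000040724; chr3:107101146-107115005) stood at 12.2, 92.4, 115, 132 and 84.0 CPM in fresh cells. It was at 0 in all cultured libraries, at least 2095-fold lower (adjusted p = 0.00146). Kcna6 (Kv1.6; ENSMUSG00000038077; chr6:126708329-126740674) was at 2.43, 26.3, 29.4, 18.8 and 8.01 CPM and likewise at 0 in culture, at least 261-fold lower (adjusted p = 0.00534). This bound was 155-fold without fresh replicate 4. All 3 genes were therefore high in 4 fresh libraries, low in fresh replicate 1 and at or near 0 in culture. Kcna3 (Kv1.3), a channel of lymphocytes and glia, did not pass the filter, with 0.456, 0.601, 0.360, 0 and 3.58 CPM in fresh and no count in cultured cells. It was called lower in the fit with no filter on low counts. Kcna5 (Kv1.5), a channel of heart and vessel muscle, was at 0.798, 2.85, 3.05, 0.127 and 0.130 CPM in fresh and 0 in cultured cells, and did not pass the test (adjusted p = 0.0548).

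Kcna5, Kcna1 and Kcna6 lie side by side on chromosome 6, with 172916 bases between the outer genes Kcna5 and Kcna6. The gap from Kcna1 to Kcna6 is 61944 bases and from Kcna5 to Kcna1 104984 bases. Kcna3, Kcna2 and Kcna10 form a like cluster on chromosome 3, with Kcna2 63075 bases from Kcna3 and 68050 bases from Kcna10. Within both clusters the levels of neighbours differed widely. Per kilobase of exon, a scale that allows genes to be compared, fresh levels were 29.9 ± 18.6 for Kcna1, 2.86 ± 1.95 for Kcna6 and 0.485 ± 0.506 for Kcna5 (CPM per kb, mean ± SD, n = 5). They were 7.31 ± 3.85 for Kcna2, 0.526 ± 0.768 for Kcna3 and 0.0905 ± 0.160 CPM per kb for Kcna10.

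The ether-à-go-go family (Kcnh) was sparse, with sums of 2.79 to 16.3 CPM in fresh cells. In culture 5 of its 6 tested members were lower (83.3%, beside 18.0% of all genes tested). Kcnh7 (Erg3) was at 2.34, 2.00, 4.23, 5.13 and 1.44 CPM in fresh cells and 0 in culture (at least 64.1-fold lower, adjusted p = 0.00684), with a bound of 27.9-fold and 99.2-fold on leaving out fresh replicates 4 and 5 in turn. When each of the 8 libraries was left out in turn, Kcnh2 was called in 0 and Kcnh6 in 1 of the 8 fits, and neither was called without scaling factors (adjusted p = 0.0602 and 0.0719). Kcnh5 was called in 7 of the 8, its bound of 74.2-fold becoming 2.05-fold without fresh replicate 4 (adjusted p = 0.110) and 144-fold without fresh replicate 5. Kcnh1 (Eag1), the EAG channel of fusing myoblasts, was at 0.228, 1.14, 1.62, 0 and 0 CPM in fresh and 6.74, 0 and 1.53 CPM in cultured cells. Its 2 run-2 fresh libraries had no count, the cultured libraries disagreed, and the difference did not pass the test (adjusted p = 0.0739). It passed without cultured replicate 2, the library with no count (adjusted p = 0.0196), and with DESeq2 (adjusted p = 0.00905).

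Several other voltage-gated genes were low in fresh cells and lower in culture. Both tested Kcnd genes, which carry A-type currents, had no count in culture, Kcnd1 from a fresh level of 6.10, 4.74, 3.24, 6.07 and 0.326 CPM (at least 62.7-fold lower, adjusted p = 0.0143). Fresh replicate 5 was the low fresh library for Kcnd1, and without it the bound was 117-fold. Without fresh replicate 4 the bound was 6.30-fold and the adjusted p 0.0548. Both tested Kcng genes, silent subunits that modify Kcnb channels, were lower from fresh levels of at most 3.29 CPM. Kcng1 was called in 1 and Kcng2 in 3 of the 8 fits that left out a library, and both fell below the filter without fresh replicate 2, 3 or 4. The Kcnc family of fast delayed rectifiers had no called member.

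In the KCNQ family, which carries M-type currents, 1 of 4 tested members was higher and none lower. Among all genes tested 8.87% were higher and 18.0% lower. Kcnq5 (Kv7.5; ENSMUSG00000028033; chr1:21398403-21961942) rose from 4.22, 3.87, 3.18, 0.820 and 1.04 CPM in fresh to 9.86, 22.9 and 32.1 CPM in cultured cells. Its log2 fold change, here and below with its standard error, was 4.53 ± 0.85 (adjusted p = 0.00580). Every cultured library was above every fresh one, with the run-2 fresh libraries lowest. Against the run-1 fresh libraries the log2 fold change was 2.60 (adjusted p = 0.0159).

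Kcnq3, a neuronal member of the family, was at 4.84, 2.74 and 4.20 CPM in the run-1 fresh libraries and had no count in run 2. Kcnf1 (Kv5.1; ENSMUSG00000051726; chr12:17172100-17176888), a silent subunit that forms channels only with Kcnb partners, was at 0.684, 1.04, 0.360, 0 and 0.195 CPM in fresh and 0.211, 31.3 and 25.4 CPM in cultured cells. Cultured replicates 2 and 3 were high and cultured replicate 1 lay inside the fresh range. The run-2 fresh libraries held 3 counts, a ratio of 0.00503 to culture (interval 0.00103 to 0.0147; log2 fold change 7.51 ± 2.24, adjusted p = 0.0372). The adjusted p was 0.0512 to 0.178 when any library other than cultured replicate 1 was left out and 0.00122 without that library. The log2 fold change ran from 6.62 to 11.43, the values on leaving out fresh replicates 4 and 5.

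**Figure D2:**
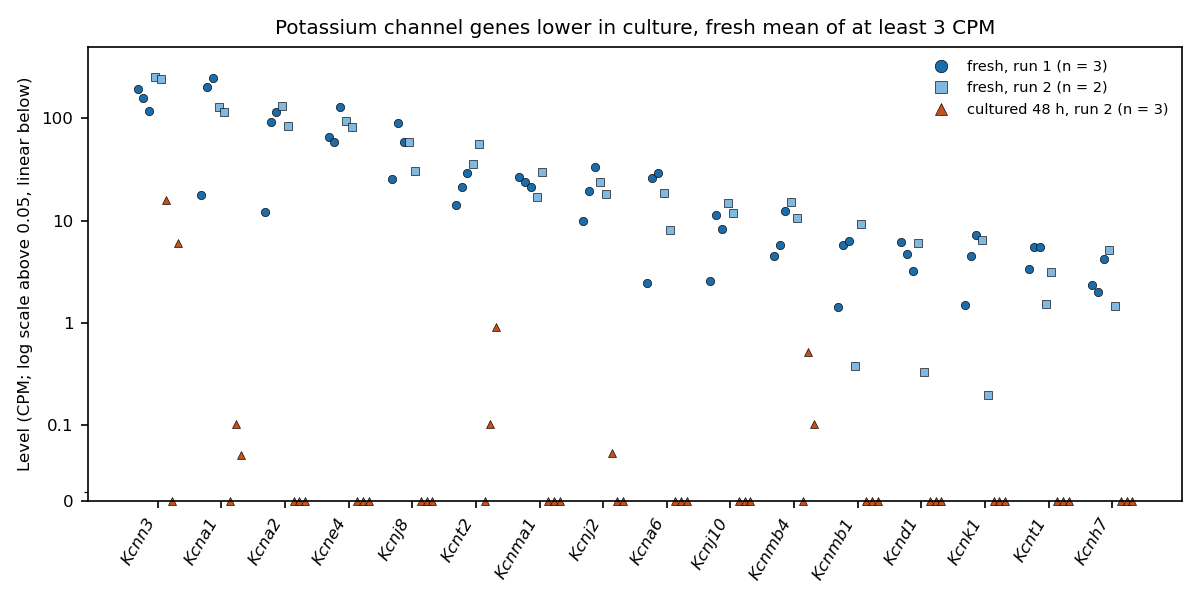
Level (CPM, log scale above 0.05 and linear below) of potassium channel genes lower in culture with a fresh mean of at least 3 CPM, 1 mark per library. Circles are run-1 fresh, squares run-2 fresh and triangles cultured libraries. Most cultured marks lie on 0, while Kcnn3 keeps cultured values of 15.8 and 6.01 CPM, and fresh replicate 1 is the lowest circle for Kcna1, Kcna2 and Kcna6.

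Of 11 inward rectifiers tested, 4 (36.4%) were lower and none higher in culture, beside 18.0% and 8.87% of all genes tested. Kcnj8 (Kir6.1; ENSMUSG00000030247; chr6:142564837-142571614), the pore of vascular ATP-sensitive channels, was at 25.3, 89.9, 59.0, 58.5 and 30.9 CPM in fresh cells and 0 in each cultured library. It was at least 868-fold lower (adjusted p = 0.000623). Its partner Abcc9 (SUR2), a sulphonylurea receptor, lies 16247 bases away on the same strand of chromosome 6 and was at 41.1, 269.8, 219.9, 156 and 151 CPM in fresh and 0 in all cultured libraries. Abcc9 was at least 2973-fold lower (adjusted p = 0.000761). Both genes were lowest in fresh replicate 1 among fresh libraries. So were the summed pericyte and smooth muscle, Schwann and glial, and fibro-adipogenic markers. The part of such cells was not tested.

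The other ATP-sensitive pair was low in every library. Kcnj11 (Kir6.2), the pore of muscle and beta-cell channels, was at 0.114, 0.467, 0.0600, 0 and 0 CPM in fresh cells and 0 in culture and did not pass the filter. Its neighbour Abcc8 (SUR1), 3758 bases away on chromosome 7, was at 0.969, 1.48, 0.603, 0 and 0.586 CPM in fresh and 0, 0.720 and 0 CPM in cultured cells (adjusted p = 0.958). Per kilobase, Kcnj8 stood at 20.7 ± 10.2 and Kcnj11 at 0.0349 ± 0.0532 CPM per kb in fresh cells.

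Kcnj2 (Kir2.1; ENSMUSG00000041695; chr11:111066164-111076821), the strong rectifier linked to myoblast fusion, was at 9.87, 19.5, 33.6, 23.7 and 18.1 CPM in fresh and 0.0527, 0 and 0 CPM in cultured cells, a single count in cultured replicate 1. The ratio of run-2 fresh to cultured cells was 1215 (interval 217 to 48079; adjusted p = 0.000698). Without cultured replicate 1 no count was left and the difference was at least 273-fold. Kcnj10 (Kir4.1), a glial potassium buffering channel, was at 2.56, 11.3, 8.34, 14.8 and 11.7 CPM in fresh cells and 0 in culture (at least 257-fold lower, adjusted p = 0.00301).

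Kcnj5 (Kir3.4), a G protein-gated subunit, was at 7.08 CPM in fresh replicate 4 and 0 in fresh replicate 5 and in culture, at least 69.5-fold lower (adjusted p = 0.0394). Without fresh replicate 4 no run-2 fresh count was left, and without fresh replicate 5 the bound was 137-fold. The call was kept in 2 of the 8 fits that left out a library, with an adjusted p of 0.0648 to 0.0775 without fresh replicate 1, 2 or 3 or cultured replicate 2 or 3. Kcnj13 (Kir7.1), an epithelial channel, spanned 6.09, 4.53, 8.20, 2.97 and 28.1 CPM in fresh and 1.00, 5.51 and 0.152 CPM in cultured cells. Its groups overlapped and it did not pass the test (-2.80 ± 1.36; adjusted p = 0.162). The other 6 tested inward rectifiers were at 1.34 CPM or less in each cultured library, and none passed.

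The two-pore channels, which carry background leak currents, had 6 tested members, of which 3 were lower and none higher. Kcnk1 (TWIK-1) was at 1.48, 4.47, 7.30, 6.38 and 0.195 CPM in fresh cells and 0 in culture, at least 64.5-fold lower (adjusted p = 0.0221). The call rested on fresh replicate 4: without it the bound was 3.78-fold and the adjusted p 0.116. With fresh replicate 5 left out instead, the bound was 123-fold. Kcnk3 (TASK-1), an acid-sensitive leak channel, was at 0.342, 4.07, 3.66, 1.58 and 0.261 CPM in fresh and 0, 0 and 0.0510 CPM in cultured cells, with a ratio of 54.0 (interval 8.95 to 2205; adjusted p = 0.0411). This ratio was 15.1 and 91.7 on leaving out fresh replicates 4 and 5 in turn. Leaving out any cultured library gave Kcnk3 an adjusted p of 0.0567 to 0.0948, and the difference was at least 11.9-fold without cultured replicate 3. Kcnk3 fell below the filter without fresh replicate 2, 3 or 4, and without scaling factors its adjusted p was 0.0531.

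Kcnk6 (TWIK-2) was the remaining lower two-pore gene, at 2.14 CPM or less in every library (at least 10.9-fold lower, adjusted p = 0.0123). It fell below the filter on leaving out any fresh library but the first, and its bound was 7.06-fold without fresh replicate 4. Kcnk5 (TASK-2) and Kcnk2 (TREK-1), a stretch-gated channel, had the most counts of the class over all libraries and did not pass. Kcnk5 was at 11.6, 17.1, 15.8, 9.99 and 4.04 CPM in fresh and 0.0527, 2.68 and 7.75 CPM in cultured cells (adjusted p = 0.613). Kcnk2 was at 1.25, 4.67, 4.92, 5.75 and 2.41 CPM in fresh and 0, 8.59 and 0.255 CPM in cultured cells (-0.47 ± 1.83; adjusted p = 0.900). The cultured libraries ran from at or near 0 up to 7.75 CPM for Kcnk5, within the fresh range, and 8.59 CPM for Kcnk2, above it.

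Calcium- and sodium-activated channels had 7 of 11 tested members lower (63.6%, beside 18.0% of all genes tested) and none higher. In all 7 every cultured value was below every fresh value. Kcnn3 (SK3; ENSMUSG00000000794; chr3:89520164-89675132), a small-conductance calcium-activated channel, took the most counts of any pore gene in fresh cells, at 194, 159, 118, 254 and 242 CPM. In culture it was at 15.8, 0 and 6.01 CPM, all below fresh but spread from 0 to 15.8. The log2 fold change was -5.09 ± 1.30 (adjusted p = 0.0199). The adjusted p was 0.0650 and 0.0622 on leaving out fresh replicates 4 and 5 in turn and 0.0763 in run 2 alone. Without cultured replicate 1 its log2 fold change was -6.30.

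Kcnn2 (SK2) was low, at 1.71, 0.668, 2.46, 0.379 and 2.74 CPM in fresh and 0.0527, 0 and 0 CPM in cultured cells, with a ratio of 89.3 (interval 15.3 to 3601; adjusted p = 0.0164). Without fresh replicate 5 the ratio was 22.0 (adjusted p = 0.0801), and without fresh replicate 4 it was 159. The difference was at least 20.0-fold without cultured replicate 1. Kcnn4 (IK1), the intermediate-conductance channel of proliferating cells, was at 0.171, 1.54, 0.540, 0.190 and 1.11 CPM in fresh and 1.26, 0.618 and 0 CPM in cultured cells. Its groups overlapped, with cultured replicate 3 alone below every fresh library (-0.05 ± 1.53; adjusted p = 1.00).

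Kcnma1 (BK; ENSMUSG00000063142; chr14:23289431-24014491), the large-conductance channel opened by calcium and depolarisation, was among the steadiest genes in fresh cells. It stood at 26.6, 24.0, 21.1, 17.2 and 30.0 CPM and at 0 in culture, at least 454-fold lower (adjusted p = 0.000491). Of its 3 tested beta subunits 2 were lower as well, and Kcnmb3 did not pass (adjusted p = 0.408). Kcnmb4, a mainly neuronal beta subunit, was at 4.51, 5.71, 12.5, 15.1 and 10.6 CPM in fresh and 0, 0.515 and 0.102 CPM in cultured cells (-5.92 ± 1.36; adjusted p = 0.0128, or 0.0554 without fresh replicate 4). Its log2 fold change was -5.29 and -7.75 on leaving out cultured replicates 1 and 2 in turn. Kcnmb1, the smooth muscle beta subunit, was at 1.42, 5.74, 6.24, 0.379 and 9.25 CPM in fresh cells and 0 in culture, at least 91.8-fold lower (adjusted p = 0.0166).

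The Kcnmb1 call rested on fresh replicate 5: without it the bound was 7.33-fold (adjusted p = 0.0678), and without fresh replicate 4 it was 179-fold. Kcnmb1 also lies within the span of Kcnip1 on the other strand of chromosome 11. The sources used here do not state if reads were counted by strand, so reads of overlapping genes on opposite strands cannot be assigned with certainty.

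Of the sodium-activated genes, Kcnt2 (Slick; ENSMUSG00000052726; chr1:140246158-140612067) was at 14.2, 21.4, 29.2, 35.4 and 56.7 CPM in fresh and 0, 0.103 and 0.917 CPM in cultured cells. The groups did not overlap (-7.05 ± 1.25; adjusted p = 0.00477), and the log2 fold change ran from -6.41 without cultured replicate 1 to -9.58 without cultured replicate 3. Kcnt1 (Slack) was at 3.36, 5.48, 5.52, 1.52 and 3.13 CPM in fresh cells and 0 in culture, at least 44.7-fold lower (adjusted p = 0.00628), with a bound of 29.3-fold without fresh replicate 5.

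Of 8 accessory subunits tested, 2 (25.0%) were lower and none higher, beside 18.0% and 8.87% of all genes tested. Kcne4 (ENSMUSG00000047330; chr1:78816758-78820028), a single-pass subunit that inhibits Kv1 and KCNQ1 channels, was at 65.7, 58.4, 128, 94.3 and 83.1 CPM in fresh cells and 0 in each cultured library. It was at least 1717-fold lower (adjusted p = 0.000157). At 32.4 ± 10.4 CPM per kb it stood first among the members in fresh cells, ahead of Kcna1, Kcnj8 at 20.7 ± 10.2 and Kcnn3 at 18.5 ± 5.44 CPM per kb, and the spreads of these 4 overlap. The other lower accessory gene was Kcnip2, a calcium-binding partner of Kcnd channels, at 0.190 to 1.26 CPM in fresh cells and 0 in culture (at least 9.31-fold lower, adjusted p = 0.0123). Its bound was 15.1-fold and 3.67-fold on leaving out fresh replicates 4 and 5 in turn, and its adjusted p 0.0512 without fresh replicate 2.

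Kcnab1, the cytoplasmic Kvβ1 subunit of Shaker channels, was at 2.88, 4.45, 7.35, 2.40 and 3.84 CPM in fresh and 105, 0.103 and 3.36 CPM in cultured cells. A single cultured library was high, the others lay within or below the fresh range, and the difference did not pass the test (3.53 ± 2.02; adjusted p = 0.232). Without cultured replicate 1 the log2 fold change was -0.78 (adjusted p = 0.724).

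Among the non-coding RNAs only Kcnq1ot1 passed the filter. Kcnq1ot1 (ENSMUSG00000101609; chr7:143203458-143296549) is a long RNA expressed from the paternal allele that silences genes of its imprinted domain in cis, and it is transcribed antisense to Kcnq1 from within that gene. It was at 205, 198, 234, 287 and 367 CPM in fresh and 622, 491 and 620.3 CPM in cultured cells, and every cultured library was above every fresh one. The log2 fold change was 0.82 ± 0.23 (adjusted p = 0.0271). The adjusted p was 0.146 and 0.0513 on leaving out fresh replicates 4 and 5 in turn, 0.0512 without cultured replicate 3 and 0.0645 in run 2 alone.

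Kcnq1 itself was at 0.229, 0.338, 0.780, 0 and 0 CPM in fresh cells and 0 in culture. As the 2 genes overlap, their reads are told apart only as far as the authors' counting did so. Kcnq1ot1 held 23.8% of the summed CPM, a share of counts not corrected for length, of the 98 genes in fresh cells and 79.6% in cultured cells. Without the non-coding RNAs the members summed to 828 ± 179.9 CPM in fresh (SD, n = 5) and 148 ± 12.5 CPM in cultured cells (n = 3). The other 4 non-coding RNAs stayed below the filter, Kcnmb4os2 at 0.627, 0.467, 0.180, 0.400 and 0.586 CPM in fresh cells and 0 in culture.

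**Figure D3:**
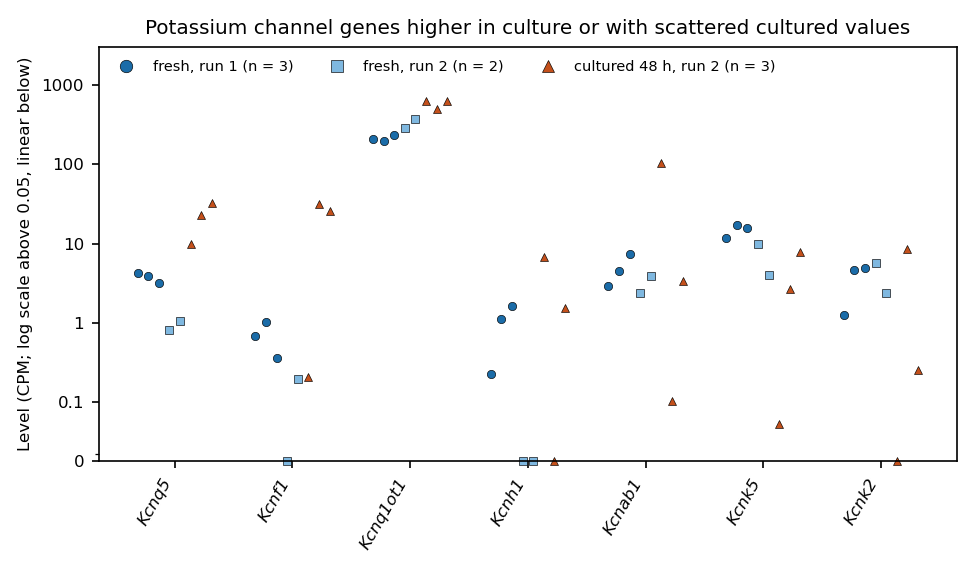
Level (CPM, log scale above 0.05 and linear below) of the channel genes higher in culture (Kcnq5, Kcnf1, Kcnq1ot1) and of 4 others not called, 1 mark per library. Circles are run-1 fresh, squares run-2 fresh and triangles cultured libraries. Kcnq5 and Kcnq1ot1 have every triangle above every fresh mark, while Kcnab1, Kcnk5 and Kcnk2 have triangles on both sides of the fresh range or spread down to near 0.

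The 34 tested members that were not called fall into 2 kinds. In 9 of them, among them Kcna4, Kcna7, Kcne1 and Kcnip1, neither the run-2 fresh nor the cultured libraries held a count, so the test of culture had nothing to compare. These genes reached at most 4.96 CPM in run 1. The others held counts in run 2, and in most of them the cultured libraries overlapped the fresh ones. The exceptions were Kcna5, Kcnn1 and Kcns3, where every cultured value was below every fresh value. Of the 32 members below the filter, none exceeded 3.58 CPM in any fresh library, and 6 held a count in any cultured library, led by Kcnj4 at 2.26 CPM and Kcnip4 at 1.63 CPM. Kcnk12 had no count in any library.

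Between the runs, 0 members passed the test in fresh cells, against 0.189% (36) of all genes tested, and the smallest adjusted p was 0.0603 (edgeR). At an unadjusted p under 0.05 there were 20 members, 19 of them lower in run 2, which is 30.3% of those tested against 15.5% of all genes. DESeq2 called 6 of the 66 tested members. Its share over all genes was not taken, so these 6 cannot be set against genes in general. The culture fold changes use the fresh libraries of run 2 only, which shared their lane with the cultured ones.

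Several of the lower genes differed within fresh cells too. In fresh replicate 1, Kcna1 was at 7.90%, Kcna6 at 8.71% and Kcna2 at 11.8% of the mean of fresh replicates 2 and 3, its partners in run 1. Kcnj8 was at 33.9%, Kcnj2 at 37.2% and Abcc9 at 16.8%. By contrast Kcnma1 was at 118% and Kcnn3 at 140.3%. Of the 12 tested members with a fresh mean of at least 10 CPM, 5 (41.7%) were under 50%, with a median of 63.2%. The same held for 398 of 8642 genes (4.61%), with a median of 100.5%.

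Markers of some other cell types were low in that library as well. Of 12 pericyte and smooth muscle markers 10 were under 50% (median 28.7%), and Rgs5 was at 10.2% and Myh11 at 11.2%. Of 8 Schwann and glial markers 6 were under 50% (median 9.33%), and Sox10 was at 8.96%. Of 8 fibro-adipogenic markers 4 were under 50% (median 47.1%). Fewer were under 50% among the endothelial (2 of 8, median 88.3%) and the blood and immune markers (2 of 8, median 90.1%). The same was true of the myofibre markers (0 of 8, median 73.4%). None of 8 muscle stem cell markers were (median 105%), and Pax7 was at 146%. Among the 29 genes lower in culture, 15 (51.7%) were under 50% in fresh replicate 1, against 19.9% of all genes called lower and 12.1% of all genes tested. The part of such cells in the fresh levels of these genes, and in the differences with culture, was not tested. Without fresh replicate 1, 25 members were called lower (52.1% of 48 tested, against 15.3% of all genes), and all 25 were among the 29.

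**Figure D4:**
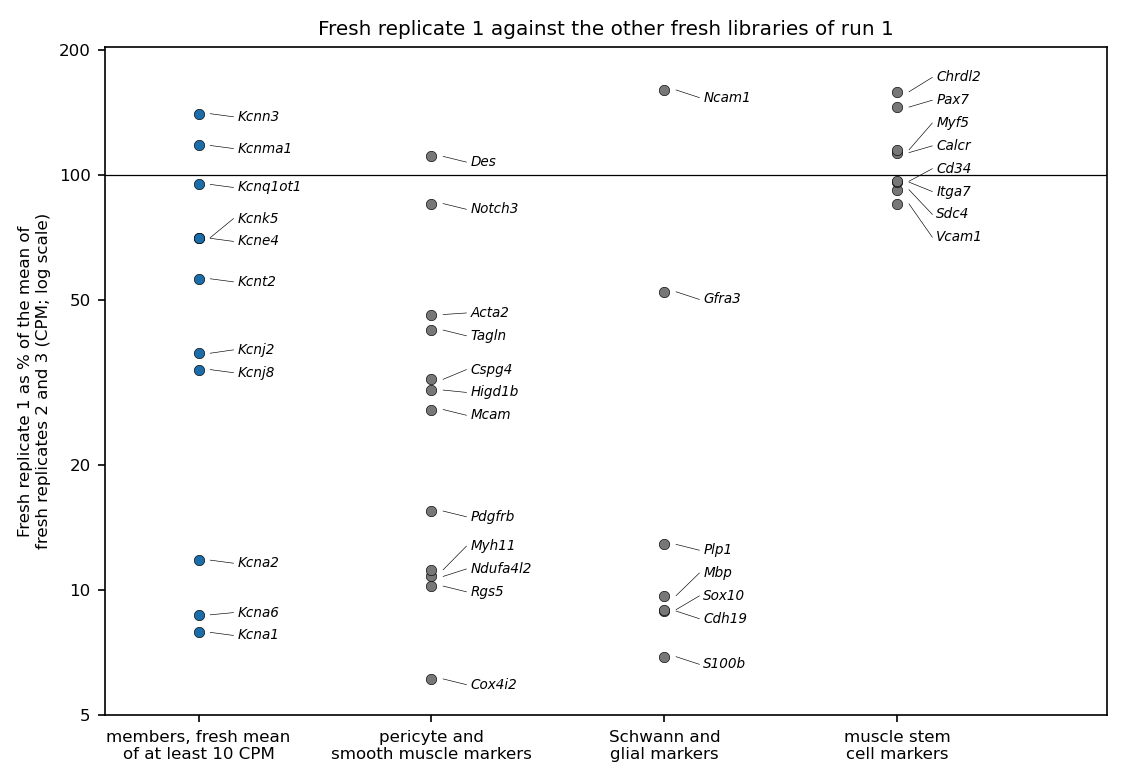
Level in fresh replicate 1 as a percentage of the mean of fresh replicates 2 and 3 (log scale), 1 point per gene, with a few genes not shown. The columns hold potassium channel genes with a fresh mean of at least 10 CPM and the markers of pericytes and smooth muscle, Schwann and glial cells, and muscle stem cells. Kcna1, Kcna6 and Kcna2 lie at 7.90 to 11.8%, while the muscle stem cell markers lie at 85.1 to 158%.

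Genes that work with potassium channels were examined from 3 lists. Of 21 channel partners and regulators, 17 were tested, 3 were lower and 1 higher, with a median log2 fold change of 0.00. These shares, 17.6% lower and 5.88% higher, were near those of all genes tested (18.0% and 8.87%). The lower ones were Abcc9, Nedd4l and Akap9. Nedd4l, a ubiquitin ligase that removes KCNQ and other channels from the membrane, was at 165, 150.4, 202, 293 and 271 CPM in fresh and 15.5, 30.6 and 13.5 CPM in cultured cells (-3.83 ± 0.37; adjusted p = 0.000346). Akap9, an anchor of kinases at channels, was at 349, 225, 249, 403 and 393 and 230.1, 244 and 189.9 CPM with overlapping groups (-0.85 ± 0.25; adjusted p = 0.0333). Its adjusted p was 0.0609 to 0.159 without fresh replicate 4 or 5 or cultured replicate 1 or 3, and 0.235 without scaling factors.

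The pumps and cotransporters that build the potassium gradient had 14 tested genes, of which 5 were lower and 2 higher (median log2 fold change -1.38). That is 35.7% lower and 14.3% higher, beside 18.0% and 8.87% of all genes tested. Atp1b2, a sodium pump beta subunit of glia, fell from 16.4, 102, 75.5, 49.8 and 35.3 CPM to 1 count in culture, a ratio of 2476 (interval 444 to 97849; adjusted p = 0.000466), or at least 549-fold without cultured replicate 2. Fxyd1 (phospholemman), a pump regulator of muscle, was at 22.4, 36.3, 24.1, 26.0 and 38.2 CPM in fresh cells and 0 in culture, at least 619-fold lower (adjusted p = 0.000346). Fxyd6 also fell (-5.73 ± 1.11; adjusted p = 0.00652) and Fxyd5 rose (3.63 ± 0.67; adjusted p = 0.00549). These were -5.10 and 3.00 without cultured replicate 1, and Fxyd6 was -6.63 without cultured replicate 3. Atp1b1 and Atp1b3, the other tested beta subunits, did not pass (adjusted p = 0.0864 and 0.218) but did without scaling factors (adjusted p = 0.0447 and 0.0278), where 5 genes of this list were higher.

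**Figure D5:**
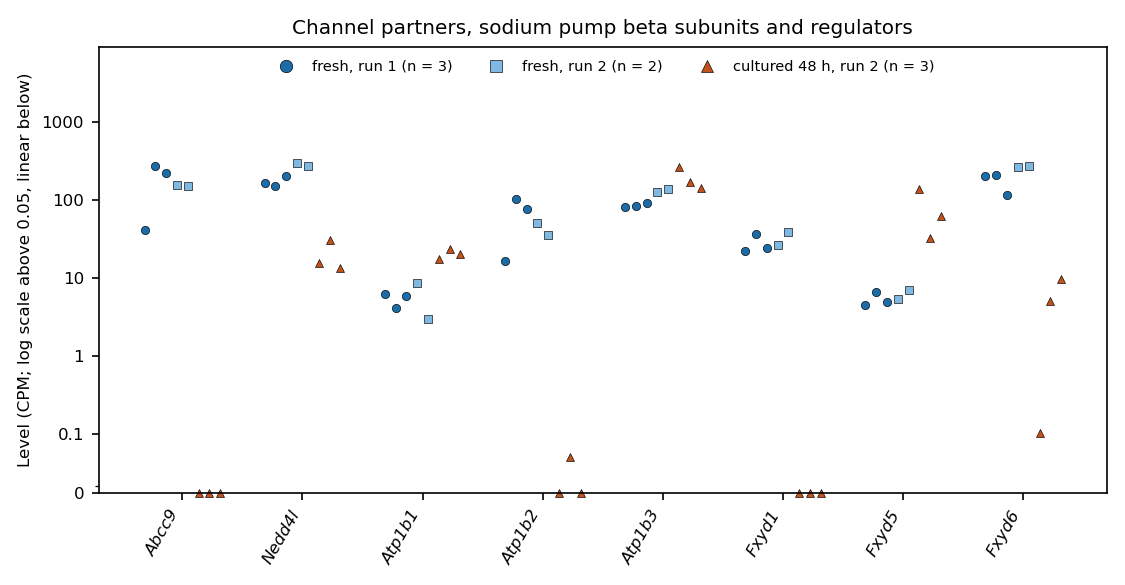
Level (CPM, log scale above 0.05 and linear below) of 8 channel partners and sodium pump beta subunits and regulators, 1 mark per library. Circles are run-1 fresh, squares run-2 fresh and triangles cultured libraries. Abcc9, Atp1b2 and Fxyd1 have triangles at or near 0, while Fxyd5 has every triangle above every fresh mark.

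Of 8 hyperpolarisation-activated (HCN) and intracellular potassium conductance genes, 7 were tested, 2 were lower and none higher (median log2 fold change -1.55). That is 28.6% lower, beside 18.0% of all genes tested. Hcn4, the pacemaker channel of the heart, was at 3.82, 6.68, 14.1, 6.44 and 4.15 CPM in fresh cells and 0 in culture, at least 103-fold lower (adjusted p = 0.00481). The lysosomal channel Tmem175, the TRIC channels Tmem38a and Tmem38b and the mitochondrial exchanger Letm1 did not pass.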

How the data were processed

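RNA-seq was analysed in 5 fresh and 3 cultured libraries. The values are expected counts for each gene in each library, as the authors deposited them in 1 table made with STAR, RSEM and the mouse build mm10 per the submitters' processing notes. The sources used here give no versions, strand setting or annotation release. RSEM divides reads shared by similar genes, so close paralogs are uncertain. Of the values above 0, 50.1% were not whole, and all were rounded before testing. The 92 spike-in lines (40.9 counts) were left out, and 2423 lines without a gene identifier (0.385 to 0.568% of counts per library) were kept in the fit under their symbol. Coordinates and exon lengths are from GENCODE M21 (GRCm38, the same build), which held 98.8% of identifiers and all 98 members.

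The whole table was fitted in R 4.3.3 with edgeR 4.0.16 (limma 3.58.1), quasi-likelihood test: filterByExpr with default settings (19054 genes kept), TMM scaling (0.790 to 1.18), run and culture as terms, 5 residual degrees of freedom and Benjamini-Hochberg adjustment at 0.05 over all genes tested. Each SE was approximated as the absolute log2 fold change over the square root of F. DESeq2 1.42.0 was an alternative. The fit was tested on simulated data. All pairs of libraries differed by more than sampling noise. Per-kilobase levels divide CPM by the union of annotated exons. Promoter sequences are RefSeq's (GRCm38.p6).

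The members, classes and lists were chosen with earlier results of these data known. Kcnab, Kcnip, Kcnt and Kcnu genes, which the naming of classes left out, were placed by their known function. Genes were named by a rule: called members at 10 CPM or more, up to 3 called members per class and direction with the largest fold change at 1 CPM or more, the 2 most abundant per class, 13 fixed genes, and per partner list 3 called genes by size of fold change at 10 CPM or more. Genes named outside it, such as Kcnj13, Kcna5, Kcnh7, Kcnd1, Kcnmb4, Kcnn2, Kcnj5, Kcnk6, Kcnip2, Akap9, Fxyd5, Fxyd6 and Hcn4, were chosen after their values were seen. Markers and partner genes with values beside a result are from the lists. Some genes that these counts cover are not reported here by name. The 15 alternatives were no scaling factors, DESeq2, no filter, no run term, run 2 alone, run-1 fresh libraries against culture, a replicate block, and leaving out each library.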

Additional observations from a re-analysis of the deposited data

Results flagged for a closer look

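In 2 of 33 groups of fresh libraries examined for the named genes, a single library stood far from the other 4. For normally distributed values, chance alone is expected to single out about 1 in 20 such groups. This rate need not hold for groups with values at 0, which both flagged groups have. Kcna3 was at 3.58 CPM in fresh replicate 5 and at 0 to 0.601 CPM in the other fresh libraries. Kcnj11 was at 0.467 CPM in fresh replicate 2 and at 0 to 0.114 CPM in the others. Both genes were below the filter on low counts and enter no test in the main fit. In the alternative with no filter, Kcna3 was called lower in culture and Kcnj11 was not called.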

How the results depend on the processing

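The 29 members lower in culture became 13 in run 2 alone (37.1% of the 35 tested, against 10.9% of all genes) and 8 under the replicate block (12.9% of 62, against 7.55%). All 13 and all 8 were among the 29. Leaving out each library gave 17 to 29, the fewest without fresh replicate 4. These were 27.4 to 52.1% of the members tested, against 13.1 to 18.1% of all genes. The 3 members higher in culture became 1 in run 2 alone and 1 under the replicate block, and 1 to 4 on leaving out each library, with 1 without fresh replicate 4, without fresh replicate 5 or without cultured replicate 3. The replicate block used fresh and cultured replicates 1 to 3. The deviations of same-numbered libraries correlated at 0.00392 to 0.0198, so the numbers were not taken as pairs, and these fresh libraries were all of run 1. Between runs, 0 members were called, and 6 with DESeq2, for which no share over all genes was taken. The cause of these differences was not tested.

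Of the lower genes, 14 were called on leaving out each of the 8 libraries, and 8 under all 15 alternatives: Kcna1, Kcna2, Kcna6, Kcne4, Kcnj2, Kcnj8, Kcnma1 and Kcnt2. Of the higher genes, Kcnq5 was called on leaving out each library and lost under the replicate block (adjusted p = 0.0741). Over 440 values of the 30 named genes tested, 394 kept their direction and side of the threshold, 30 lost the call, 2 gained it and 14 changed sign. These 14 were of 5 genes that passed in neither fit. Without scaling factors the log2 fold change was 0.14 for Abcc8, 0.026 for Kcnk2 and 0.24 for Kcnn4. Under the replicate block it was -0.69 for Kcnab1 and -0.0034 for Kcnh1. Leaving out each library gave -5.36 to 5.17 for Abcc8, -4.87 to 0.36 for Kcnk2, -0.99 to 1.68 for Kcnn4 and -0.78 to 4.07 for Kcnab1. Among the other calls, all genes lower fell from 3431 to 1767 in run 2 alone and 1384 under the replicate block, and all genes higher from 1691 to 1013 and 1347. Depth limits members at a few counts, where bounds move with a single fresh library. Members seen only in run 1 cannot be compared with culture within a run.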
